A study of Oryza sativa with 26 samples.

Results

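Rice anthers (Oryza sativa) holding mature, tricellular pollen were compared with anthers in which the hypodermal archesporial cells were just forming. The older stage is named P3 and the younger An1, and each was measured on 3 Affymetrix Rice Genome Arrays, so that 6 of the 26 arrays of the series enter the comparison directly. The arrays were chosen by the stage named in their titles. The other 20 arrays cover Mei1 (premeiotic), M1, M2 and M3 (meiosis), P1 (uninucleate microspores) and P2 (bicellular pollen), with 3 or 4 arrays each, and serve here for the spread and for the stage at which a change occurred. Both groups came from paddy-grown plants under normal conditions. No cultivar, mutant, allele or treatment is named for either group, and the titles number the arrays of a stage as biological replicates without saying how many plants or anthers each pooled. Both groups are whole anthers, which hold the germ line and the surrounding wall layers in proportions that change with age, and in such bulk RNA fewer cells of a type and less RNA per cell cannot be told apart.

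In a young anther lobe the archesporial cells divide into the sporogenous cells, which become meiocytes, and into the wall layers, of which the innermost, the tapetum, feeds the developing microspores and later degenerates. Germ cells of grasses rely on Argonaute proteins that carry small RNAs, and on the receptor kinase MSP1, which limits how many cells take the germ-cell fate. Mature grass pollen is a partly dried, starch-filled vegetative cell that encloses the sperm cells. It stores transcripts for rapid tube growth, which needs wall-loosening expansins, an actin cytoskeleton that is constantly rebuilt, calcium-regulated protein kinases, and the import of sugar, potassium and water.

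Values are intensities on a linear scale that the authors scaled so that the 75th percentile of each array is 1, and 40% of all values of the series were below 0.231. A value can be compared between arrays for the same probe set but not between probe sets, and no detection calls came with the values. In the order of replicates 1, 2 and 3, used throughout, the array medians were 0.305, 0.428 and 0.426 in P3, against 0.288, 0.242 and 0.256 in An1. The An1 arrays resembled each other closely (Pearson's r of 0.993 to 0.995 of log2(intensity + 1) over the probe sets tested below), and P3 replicates 2 and 3 correlated at 0.981. P3 replicate 1 stood apart, with r of 0.847 and 0.836 to the other P3 arrays and up to 0.890 to a P2 array. Its 100 brightest probe sets held 9.25% of the signal, against 14.4% and 16.8% in P3 replicates 2 and 3, while the An1 arrays had 8.40% to 8.91%. The actin control's 3′ over 5′ ratio, a sign of RNA integrity, was 5.03 to 6.99 in P3 and 8.56 to 12.5 in An1, while that of the GAPDH control overlapped, with 1.19 to 1.69 in P3 and 0.703 to 1.81 in An1. The median SD between replicates was 0.134 on the log2 scale in P3 and 0.0482 in An1.

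Mature pollen anthers differed from archesporial anthers at 6956 of the 47799 probe sets tested (14.6%), with 3554 higher in P3 (7.44%) and 3402 lower (7.12%). A probe set was called when limma's moderated test gave a Benjamini-Hochberg adjusted p under 0.05 and the means differed by at least 1 on the scale of log2(intensity + 1). On this scale changes of dim probe sets are compressed. The rises belonged to 2389 genes, 421 of them with a symbol, and the falls to 2571 genes, 447 with a symbol. With 1 probe set standing for each of 17338 genes, 28.2% were called, 13.6% higher and 14.7% lower, and the shares of gene lists below are to be read against these. The rises reached further: 382 probe sets gained at least 4 log2 units and 103 at least 6, whereas 37 lost at least 4 and 0 lost at least 6. Of the probe sets that rose, 30.0% had an An1 mean under the 40th percentile of all values, while 4.5% of those that fell had a P3 mean that low. The adjusted p alone was under 0.05 at 34002 probe sets, so the size threshold decided most calls. For 11 of 3041 genes with several tested probe sets, different probe sets were called in opposite directions.

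**Figure D1:**
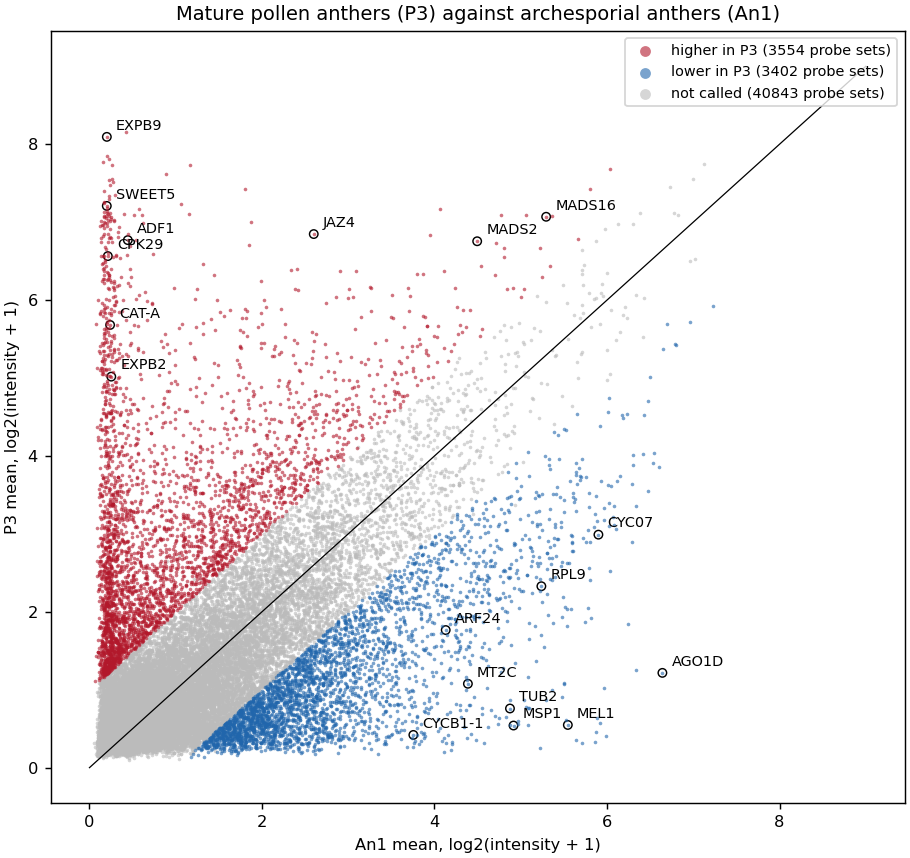
Mean level of each tested probe set in P3 (vertical axis) against An1 (horizontal axis), both as log2(intensity + 1) over 3 arrays. The 3554 probe sets called higher in P3 are red, the 3402 called lower are blue, the rest are grey, the line marks equal means, and named genes are circled; many red points lie along the left edge, at An1 levels near the low end of the scale.

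The balance between the directions depended on the scaling. Of the called probe sets 51.1% were higher in P3, against 45.5% after quantile normalization, 33.0% with every array centred on its median and 26.1% when arrays were scaled by the hybridization spike-in controls. These scalings moved the median difference over all probe sets tested from 0.13 to 0.02, -0.01 and -0.07, and over the bright probe sets (mean above 3 on the log2 scale) from -0.46 to -0.80, -0.95 and -1.17, in that order. No called probe set was called in the opposite direction under any of these scalings. The spike-in scaling divided the arrays by 0.953, 1.75 and 2.29 in P3, against 1.04, 0.809 and 0.819 in An1. It therefore lowered P3 replicates 2 and 3 most and P3 replicate 1 not at all. Directions below are relative to the 75th percentile of the array.

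The 12 genes with a symbol that rose most included 3 expansin genes, 3 of calcium signalling and 2 of actin-depolymerizing factors. The first of them was EXPB9 (LOC4349301), a beta-expansin, the family that includes the group 1 allergens of grass pollen. EXPB9 had an intensity of 165, 286 and 429 in P3, against 0.167, 0.147 and 0.136 in An1 (log2 difference 7.89, SE 0.24, adjusted p = 1.69e-16). Every P3 array was above every An1 array for it. The same holds for the other genes singled out as largest rises or falls because that was a condition for naming them, and over all genes it held for 34.7% upwards and 36.3% downwards (41.8% and 21.5% of probe sets). SWEET5 (LOC4339772), a member of the SWEET family of sugar transporters, had 42.7, 216 and 341 in P3, against 0.154, 0.112 and 0.183 in An1 (log2 difference 7.01, SE 0.79). P3 replicate 1 was the lowest of the P3 arrays at SWEET5 and still far above the An1 arrays. NifU1 (LOC4351651), which encodes a NifU-like protein of iron-sulfur cluster assembly, had 25.5, 233 and 309 in P3, against 0.104, 0.104 and 0.105 in An1 (log2 difference 6.82). YSL7 (LOC4328077), of the yellow stripe-like metal-chelate transporters, had 39.5, 206 and 301 in P3, against 0.47, 0.426 and 0.4003 in An1 (log2 difference 6.57). The remaining genes of the 12 were an aquaporin (LOC4343122, log2 difference 6.43), EXP32 (6.41), CIPK5 (6.37), CPK29 (6.35), ADF1 (6.33), EXPB10 (6.25), CML1 (6.22) and ADF9 (6.11). P3 replicate 1 was the lowest of the P3 arrays in each of these 12 genes. These are a small part of the largest rises: of the 103 probe sets that gained at least 6 log2 units, 80 had a gene and 14 of them a symbol.

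**Figure D2:**
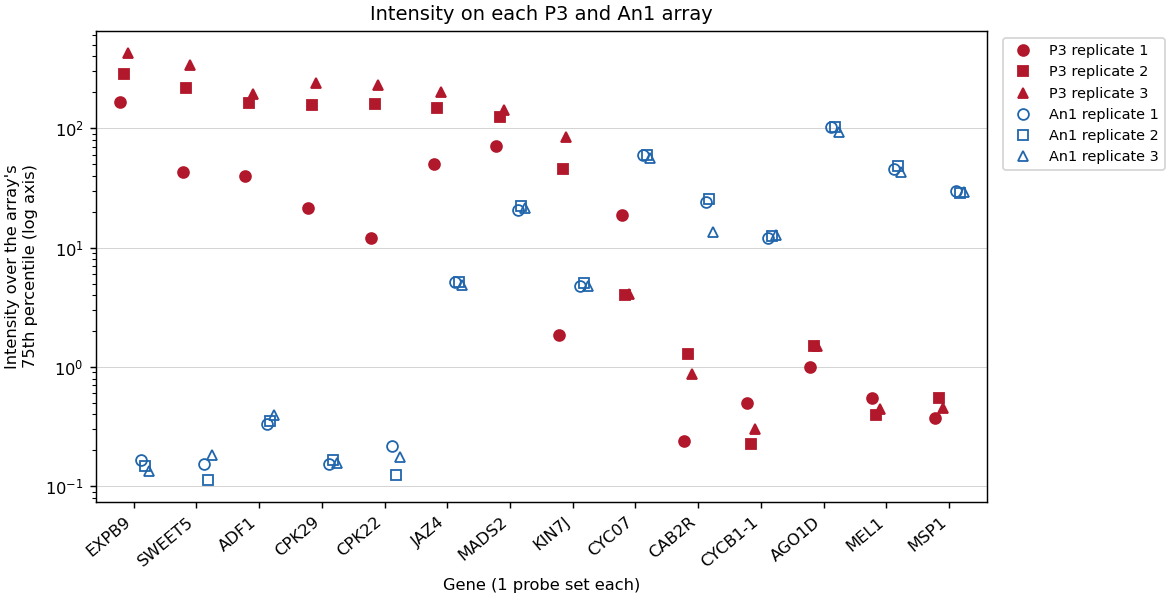
Intensity, relative to the 75th percentile of the array and on a log axis, of 14 genes on each P3 array (filled red) and each An1 array (open blue), with the replicate shown by the symbol. P3 replicate 1 (circle) lies below P3 replicates 2 and 3 for the genes that rose and above them for CYC07, and at KIN7J it lies below the An1 arrays.

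Expansins, which loosen the wall without cutting it, went both ways. Of the 10 beta-expansin genes tested 6 rose and 2 fell, with a median log2 difference of 1.83 over the list against 0.03 over all genes. EXPB10 (LOC4331325) had 57.5, 129 and 84.9 in P3, against 0.166, 0.115 and 0.1504 in An1, and EXPB2 (LOC4349348) had 30.1, 33.8 and 30.4 in P3, against 0.2596, 0.125 and 0.194 in An1. All P3 values of both genes were above all An1 values, and at EXPB2 the 3 P3 arrays were nearly equal (log2 difference 4.77, SE 0.08, adjusted p = 2.67e-21). The members that fell were EXPB17 (LOC4336479), with 0.433, 0.77 and 0.491 in P3, against 6.298, 6.14 and 6.75 in An1, and EXPB7 (LOC4331300), with 0.244, 0.306 and 0.2997 in P3, against 2.36, 2.33 and 2.52 in An1. Of the 11 alpha-expansin genes 3 rose and 3 fell, and 5 fell with median centring, with spike-in scaling or without P3 replicate 1. EXP32 (LOC4346331) had 26.1, 143 and 219.6 in P3, against 0.113, 0.111 and 0.124 in An1, and EXP5 (LOC4330706) had 0.583, 0.907 and 1.21 in P3, against 33.4, 61.7 and 40.2 in An1. The values of both were separated by stage, in opposite directions (log2 differences 6.41 and -4.57). EXP7 (LOC4334606, log2 difference -2.93) was another alpha-expansin that fell, and EXP26 (LOC4352454, 3.67) another that rose.

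Of 43 genes that build the wall 8 were higher and 6 lower, shares near those over all genes. The counts were 5 higher and 11 lower with median centring and 3 and 12 with spike-in scaling, and the list's median of 0.03 turned negative under the other scalings (-0.09 to -0.38). CSLD5 (LOC4340943), of the cellulose synthase-like D family that is known for tip-growing cells, had 2.69, 34.3 and 34.7 in P3, against 0.183, 0.116 and 0.1301 in An1. Its P3 replicate 1 value was far below those of replicates 2 and 3 but above all An1 values (log2 difference 3.87, SE 0.54, adjusted p = 2.66e-06). CESA6 (LOC4342850), a cellulose synthase of growing primary walls, had 1.02, 0.939 and 0.681 in P3, against 21.4, 20.1 and 21.4 in An1, with no overlap between the stages (log2 difference -3.55). CSLC9 (LOC4334258) was called higher (log2 difference 1.76, adjusted p = 0.00899), but its values of 4.49, 48.2 and 68.9 in P3 overlapped those of 7.11, 6.57 and 6.898 in An1, because P3 replicate 1 was lower than every An1 array. This call was lost when P3 replicate 2 or 3 was left out (limma adjusted p = 0.0662 and 0.0981), after quantile normalization and with spike-in scaling. It was also lost in a fit of the 6 arrays alone (limma adjusted p = 0.118).

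Actin-depolymerizing factors (ADFs) sever and recycle filaments, and villins bundle them. Of the 33 actin genes tested 10 rose and 4 fell. The list's median was 0.11 and turned negative under each of the other scalings (-0.10 to -0.47). ADF1 (LOC4330233) had 40, 164 and 192 in P3, against 0.336, 0.354 and 0.394 in An1, ADF9 (LOC4343240) had 28.9, 117 and 131 in P3, against 0.136, 0.1195 and 0.106 in An1, and ADF6 (LOC4336623) had 9.93, 55.8 and 47.6 in P3, against 0.186, 0.131 and 0.128 in An1. No value of these genes in P3 was below 9.93 and none in An1 was above 0.394. Of the 9 ADF genes tested 4 rose and 0 fell. The villin gene VLN4 (LOC4336902) rose as well (9.43, 45.99 and 28.1 in P3, against 0.317, 0.452 and 0.649 in An1, log2 difference 4.05). The members that fell included ARP4, ARP9 and ARP7 (LOC4344621, LOC4335089 and LOC9266759), with log2 differences of -2.85, -1.99 and -1.43. These actin-related proteins are known as subunits of nuclear chromatin-remodelling complexes rather than of the filaments. The formin gene FH16 (LOC4330671, log2 difference -1.46) was the remaining member that fell. Of 8 genes of ROP GTPases and NADPH oxidases, which mark the growing tip, RAC6 (LOC4328116) was higher (31.5, 58.3 and 68.1 in P3, against 15.1, 15.7 and 15.5 in An1, log2 difference 1.64), a call that was lost after quantile normalization (0.88) and spike-in scaling (0.84). RAC3, RAC5 and RBOHB were lower (log2 differences -1.11, -1.41 and -1.27), RAC3 not without P3 replicate 1. With a pseudocount of 4, 0 members of this list were called lower.

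Calcium-regulated kinases and sensors made up the longest list, with 25 of 88 members higher and 7 lower and a median of 0.43. With median centring 20 were higher and 14 lower, and with spike-in scaling 19 and 17, with a median of -0.01. Calcium-dependent protein kinases (CPKs) sense calcium through their own calmodulin-like domain. CPK29 (LOC4351829) had 21.5, 156 and 239.5 in P3, against 0.154, 0.165 and 0.158 in An1, and CPK22 (LOC4347564) had 12.1, 159 and 231 in P3, against 0.219, 0.124 and 0.176 in An1. P3 replicate 1 was far below the other P3 arrays at both genes, and all P3 values were above the An1 values (log2 differences 6.35, SE 0.67, and 6.07, SE 0.77). CPK2 (LOC4327560) followed with 14.1, 120.4 and 196 in P3, against 0.185, 0.122 and 0.185 in An1. Of the 19 CPK genes tested 7 rose, 1 fell and 11 were not called. CIPK5 (LOC4327093), of the kinases that are switched on by calcineurin B-like sensors, had 34.4, 197 and 292 in P3, against 0.376, 0.604 and 0.633 in An1, and of 24 CIPK genes 7 rose and 3 fell. CML1 (LOC4327351), which encodes a calmodulin-like sensor, had 62.99, 113 and 151 in P3, against 0.425, 0.368 and 0.371 in An1, and of 23 CML genes 9 rose and 1 fell. In each of these families more members were not called (11, 14 and 13) than rose. CIPK6 (LOC4345687) and CML16 (LOC4325693) were the members that fell furthest, with 0.844, 0.767 and 0.579 in P3, against 13.5, 12.3 and 12.4 in An1 for CIPK6 and 1.68, 10.4 and 3.96 in P3, against 59.6, 53.02 and 52.7 in An1 for CML16. CRO1 (LOC4342826), which encodes the calcium-binding chaperone calreticulin, fell to 20.9, 16.5 and 8.99 in P3, against 58.9, 45.5 and 50.3 in An1.

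Genes of sugar supply rose in 19 of 43 cases and fell in 1, with a median of 0.65 that stayed above 0 under each of the other scalings (0.31 to 0.62), where 13 to 18 rose and 1 fell. Of the 11 SWEET genes tested 6 rose and 0 fell. SWEET4 (LOC4329093) was above the 75th percentile of the array in An1 too and had 51.7, 221 and 254 in P3, against 18.2, 15.7 and 13.6 in An1 (log2 difference 3.11, SE 0.46, adjusted p = 5.91e-06). SPP2 (LOC4328274), a sucrose-phosphatase gene of the last step of sucrose synthesis, had 17.1, 66.3 and 49.6 in P3, against 3.41, 4.07 and 3.34 in An1. HXK5 (LOC4339361), a hexokinase gene, had 14.6, 28.8 and 17.5 in P3, against 2.29, 1.96 and 2.29 in An1. None of these genes had overlapping values. The member that fell, SUS1 (LOC4333062), encodes a sucrose synthase, which splits sucrose, and had 0.324, 0.236 and 0.414 in P3, against 4.899, 5.93 and 4.16 in An1 (log2 difference -2.17). Among 9 starch genes 1 rose and 1 fell: the granule-bound starch synthase gene GBSS1 (LOC4340018) had 16.8, 9.04 and 5.696 in P3, against 0.594, 0.444 and 0.475 in An1, and AGPS2 (LOC4345339), for a small subunit of ADP-glucose pyrophosphorylase, had 7.46, 2.81 and 1.88 in P3, against 8.24, 9.85 and 8.47 in An1. The AGPS2 call was lost without P3 replicate 2 or 3 (log2 difference -0.995 and -0.793). GBSS1 was lower in P3 than in P2 (log2 difference -1.45, adjusted p = 0.000309).

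Water, potassium and metal transporters rose more often than they fell. Of 24 aquaporin genes 11 rose and 2 fell (median 0.76), or 7 and 3 with spike-in scaling. PIP2-2 (LOC4330049), of the plasma membrane type, had 64.3, 38.5 and 31.4 in P3, against 0.396, 0.384 and 0.393 in An1. PIP2-6 (LOC4335226), of the same type, had 0.951, 0.493 and 0.351 in P3, against 24.1, 27.9 and 23.5 in An1, so that these relatives changed in opposite directions (log2 differences 4.97 and -4.05). The gene listed as TIP1 (LOC4324303), an aquaporin of the vacuolar type, had 39.4, 41.98 and 29.4 in P3, against 0.187, 0.277 and 0.253 in An1, and the silicon channel gene Lsi1 (LOC4330713) had 16.3, 12.1 and 15.3 in P3, against 0.435, 0.313 and 0.388 in An1. SIP2-1 (LOC4332668) was called higher (log2 difference 3.68, SE 0.76, adjusted p = 0.000269) with 1.21, 50.2 and 73.4 in P3, against 0.506, 0.639 and 0.615 in An1, and its P3 replicate 1 value lay close to those of An1. Of 27 potassium transport genes 9 rose and 0 fell (median 0.48). HAK1 (LOC4335729), a high-affinity potassium transporter gene, had 20.2, 32.96 and 43.6 in P3, against 0.628, 0.486 and 0.416 in An1, and HAK18, HAK10 and HAK20 rose by log2 differences of 3.72, 2.75 and 2.69. Under median centring and spike-in scaling 1 potassium member was called lower. Of 36 genes of proton, phosphate, ammonium and metal transport 7 rose and 0 fell, a share near that over all genes, and 3 rose with spike-in scaling, with the ammonium transporter genes AMT1 (LOC4336365, log2 difference 2.62) and AMT2-1 (LOC4339064, 1.46) among them.

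Hormone genes rose for gibberellin and jasmonate. Of 11 gibberellin genes 7 rose and 0 fell, with a median of 1.38 (0.61 to 0.89 under the other scalings, with 5 higher and at most 1 lower). CPS1 (LOC4329013), for the ent-copalyl diphosphate synthase that commits a precursor to gibberellin, had 27.6, 48.1 and 35.9 in P3, against 0.127, 0.0885 and 0.108 in An1 (log2 difference 5.07, SE 0.17, adjusted p = 6.48e-16). KAO (LOC4339885), for the ent-kaurenoic acid oxidase of a later step, had 24.8, 23.9 and 17.9 in P3, against 0.307, 0.229 and 0.302 in An1. The lowest P3 value of the pair was 17.9 and the highest An1 value 0.307. CYP714D1 (LOC4339131), known as EUI, encodes an enzyme that inactivates gibberellins, and it was higher too (log2 difference 2.67). GAMYB (LOC4327362), a gibberellin-regulated MYB factor of anthers, had 12.2, 25.03 and 26.5 in P3, against 6.42, 8.08 and 6.91 in An1 (log2 difference 1.38), but fell short of the threshold of 1 under each of the other scalings (0.61 to 0.89). In P2 the stage means were already 19.7 for CPS1 and 52.8 for KAO, and the log2 differences of P3 minus P2 were 0.88 and -1.19.

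Of 34 jasmonate genes 12 rose and 3 fell (median 0.30), or 8 and 5 with spike-in scaling (median 0.08), and 7 of the risen genes were among the 13 JAZ genes, whose products repress jasmonate responses. JAZ11 (LOC4331833) had 28.3, 32.01 and 59.97 in P3, against 0.333, 0.3204 and 0.451 in An1, JAZ9 (LOC4331832) had 36.8, 64.5 and 107 in P3, against 1.68, 1.598 and 2.09 in An1, and JAZ4 (LOC4347000) had 50.4, 146 and 201 in P3, against 5.15, 5.15 and 4.89 in An1. The stages did not overlap at any of the 3, and P3 replicate 1 was the lowest P3 array. JAZ4 and JAZ11 were also higher in P3 than in P2 (log2 differences 4.19 and 4.05, adjusted p = 5.86e-06 and 1.09e-06), while JAZ9 was not called there (0.09, adjusted p = 0.852). JAR1 (LOC4339756), for the enzyme that joins jasmonate to isoleucine, had 9.13, 45.3 and 69.8 in P3, against 1.27, 1.51 and 1.44 in An1 (log2 difference 3.74). JAZ13 (LOC4348531) was called lower (log2 difference -1.40, adjusted p = 0.0474), a call that was lost without P3 replicate 2 or 3 or any 1 An1 array (limma adjusted p = 0.0626 to 0.146) and after quantile normalization (0.0749). COI1A (LOC4324818), for a jasmonate receptor, was just past the threshold (log2 difference -1.01) and lost its call without P3 replicate 1 or 3 or An1 replicate 2 or 3 (-0.99 to -0.77).

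Among genes with a symbol, Argonaute genes of the germ line and of development had the largest falls. The largest fall of all probe sets was -5.585, and 9 of the 37 probe sets that lost at least 4 log2 units had a symbol. AGO1D (LOC4342138) had 1.002, 1.497 and 1.51 in P3, against 102, 102 and 92.96 in An1 (log2 difference -5.43, SE 0.24, adjusted p = 6.89e-14). MEL1 (LOC4334449), the Argonaute that rice germ cells need before meiosis, had 0.5502, 0.393 and 0.447 in P3, against 45.8, 48.1 and 43.4 in An1 (log2 difference -4.998, SE 0.22). MSP1 (LOC4324355), the receptor kinase that limits germ-cell number, had 0.371, 0.545 and 0.454 in P3, against 29.5, 28.9 and 29.2 in An1 (log2 difference -4.38, SE 0.14). In all 3 genes the arrays of each stage lay close together and far from the other stage. TDL1A (LOC4352199), which encodes a small protein that binds MSP1, was not called, with 2.29, 0.985 and 1.25 in P3, against 1.65, 1.79 and 1.77 in An1. Other genes among the 12 largest falls were R40C1 (a lectin-like protein gene, log2 difference -4.94), EXP5 (-4.57), TPP1 (a trehalose-6-phosphate phosphatase gene, -4.33), Hsp26.2 (-4.32), the beta-tubulin genes TUB2 (-4.12) and TUB1 (-3.81), PIP2-6 (-4.05), INO1-1 (an inositol phosphate synthase gene, -3.78) and CAB2R (-3.62).

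Of 25 genes of small RNA pathways and DNA methylation 16 fell and 0 rose, with a median of -1.41. Besides AGO1D and MEL1, PHN1 (LOC9269490), an Argonaute gene of the PINHEAD type, had 0.258, 0.448 and 0.373 in P3, against 12.5, 14.2 and 14.4 in An1. AGO4B (LOC4335025), of the Argonaute clade that guides DNA methylation, had 2.798, 1.28 and 1.14 in P3, against 22.5, 24.5 and 21.3 in An1. The groups were well apart at both (log2 differences -3.44 and -3.17). Of the 11 genes named AGO 5 fell and 6 were not called, and the largest positive difference in that family was 0.53. Of 7 histone modification genes 0 were called in limma's test (1 had an unadjusted p under 0.05, and the log2 differences were -0.25 to 0.30), and the gene with the highest mean level among them, fie (LOC4344620), had 5.81, 6.24 and 7.303 in P3, against 6.398, 5.98 and 6.603 in An1 (log2 difference 0.02, SE 0.11, adjusted p = 0.877). The sign of the fie difference turned under each of the other scalings (-0.19 to -0.67).

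**Figure D3:**
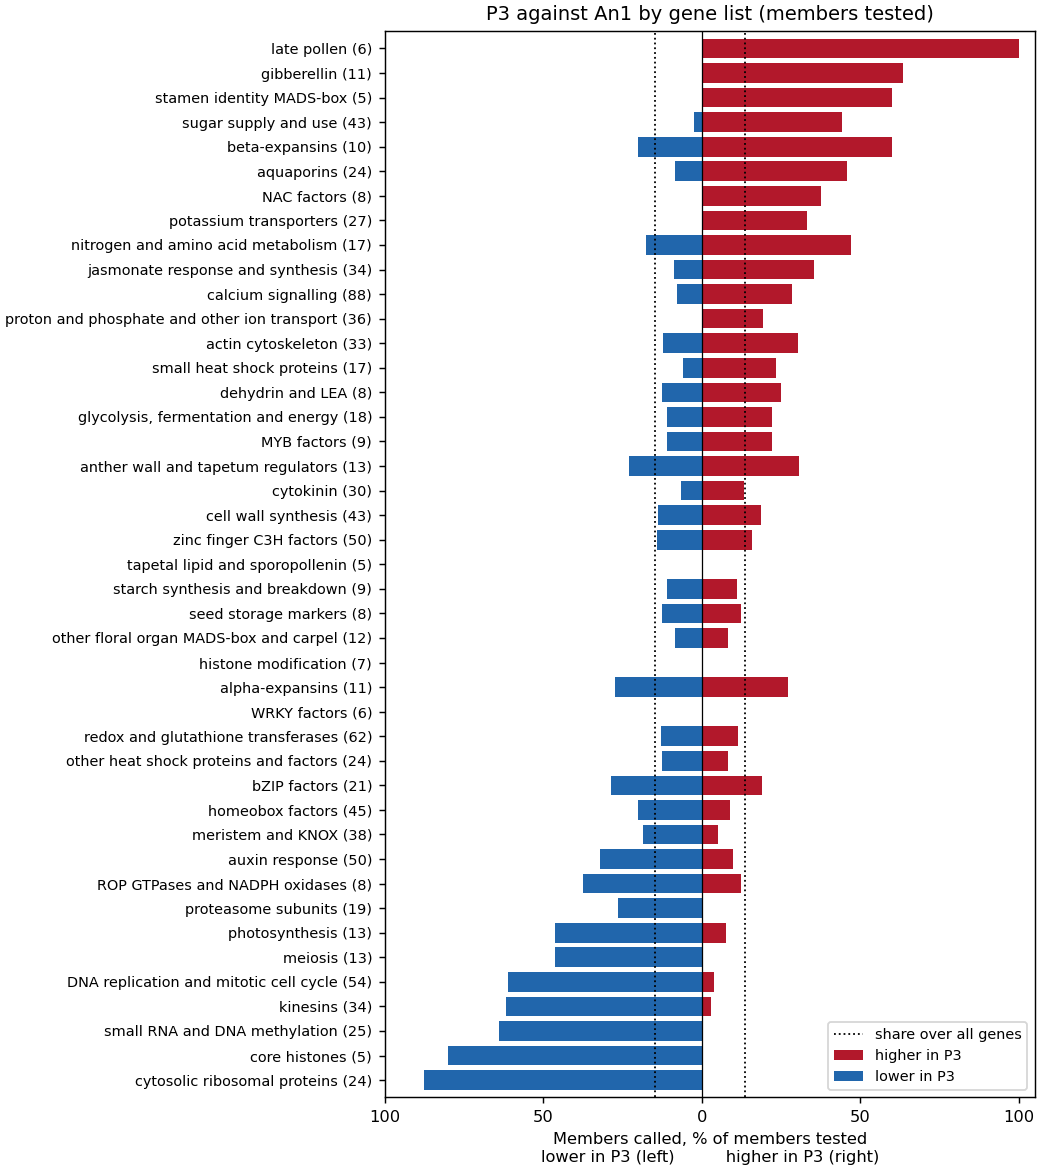
Share of the tested members of each gene list called higher (red, right) or lower (blue, left) in P3 than in An1, with the number tested in brackets and the shares over all genes dotted (13.6% higher, 14.7% lower). Late pollen, gibberellin and stamen identity genes lie at the top and cytosolic ribosomal protein, core histone and small RNA genes at the bottom. The late pollen list was made with results of these arrays known, and EXPB9, EXPB10 and ADF1 in it also belong to other lists. Lists of under 5 tested genes are not drawn.

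Genes of cell division were mostly lower. Of 54 genes of the mitotic cell cycle and DNA replication 33 fell and 2 rose, with a median of -1.32. With a pseudocount of 4, which compresses changes of dim probe sets further, 13 fell and 1 rose, with a median of -0.63. CYCB1-1 (LOC4327547), a B-type cyclin gene of mitosis, had 0.499, 0.227 and 0.302 in P3, against 12.1, 12.5 and 12.9 in An1. CDC2Os-3 (LOC4346016), for a mitotic cyclin-dependent kinase of the plant-specific B type, had 0.778, 0.867 and 0.773 in P3, against 14.04, 13.4 and 15.6 in An1. The highest P3 value of the pair was 0.867 and the lowest An1 value 12.1 (log2 differences -3.34, SE 0.14, and -3.08, SE 0.17). Of the 8 MCM genes, whose main members form the replicative helicase, 6 fell (median over the 8 of -1.86), and all 5 RFC genes, which load the sliding clamp, fell (log2 differences -2.08 to -1.24). The 5 ORC genes, for the complex that marks replication origins, were not called, with log2 differences of -0.95 to -0.30 and p under 0.05, adjusted and unadjusted, in all 5, so that only the size threshold was not reached. KRP5 (LOC4331554), an inhibitor of cyclin-dependent kinases, fell (log2 difference -3.04), while KRP1 (LOC4330816), another inhibitor, had 2.33, 4.01 and 4.198 in P3, against 0.5097, 0.471 and 0.509 in An1 and rose (log2 difference 1.56). The other member called higher was CYCD5-2 (LOC4352668), but its values overlapped, with 2.43, 22.3 and 35.6 in P3, against 3.45, 3.63 and 3.67 in An1. The call was lost without P3 replicate 3 (log2 difference 0.96, limma adjusted p = 0.0565) and with spike-in scaling (0.88). It was also lost in a fit of the 6 arrays alone (limma adjusted p = 0.111).

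Kinesins, the motors of the spindle and of vesicle transport, fell in 21 of 34 cases and rose in 1 (median -1.32). With a pseudocount of 4 the counts were 9 and 1 (median -0.55). KIN12C (LOC4333349) had 0.438, 0.312 and 0.4496 in P3, against 8.17, 7.199 and 8.58 in An1, and KIN10A (LOC4331094) had 0.375, 0.361 and 0.376 in P3, against 7.25, 6.04 and 6.99 in An1. Both were separated by stage (log2 differences -2.68 and -2.50). The member called higher, KIN7J (LOC4347645), had 1.86, 45.9 and 84.9 in P3, against 4.77, 5.08 and 4.79 in An1. P3 replicate 1 was below every An1 array at this gene and the other P3 arrays were far above them. The call (log2 difference 1.94, adjusted p = 0.0219) was lost without P3 replicate 2 or 3 (limma adjusted p = 0.125 and 0.219) and under each of the other scalings. It was also lost in a fit of the 6 arrays alone (limma adjusted p = 0.17). The beta-tubulin genes TUB2 (LOC4331315) and TUB1 (LOC4326917) had 1.08, 0.748 and 0.333 in P3, against 30.7, 28.1 and 26.4 in An1 for TUB2 and 2.38, 1.25 and 1.28 in P3, against 38.2, 31.8 and 35.8 in An1 for TUB1. Of 5 core histone genes, all for histone H2B and with copies so alike that a probe set may read several, 4 fell. H2B.6 (LOC4324502) had 7.07, 5.58 and 10.4 in P3, against 48.5, 39.1 and 42.6 in An1 (log2 difference -2.39). Among 13 meiosis genes 6 fell and 0 rose, or 3 and 0 with a pseudocount of 4. ASY1 (LOC4347514), known in rice as PAIR2, a protein of the chromosome axis, had 0.539, 0.549 and 0.554 in P3, against 5.77, 7.13 and 6.69 in An1, and SPO11-4 (LOC4352826), of the family that makes meiotic DNA breaks, had 1.67, 1.36 and 1.22 in P3, against 10.7, 8.95 and 10.2 in An1.

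Cytosolic ribosomal protein genes fell in 21 of 24 cases and rose in 0, with a median of -2.31. RPL9 (LOC4347422) had 11.3, 2.25 and 2.16 in P3, against 35.1, 40.3 and 35.2 in An1. RPS4 (LOC4328016) had 10.3, 2.73 and 2.69 in P3, against 42.97, 37.7 and 37.6 in An1. CYC07 (LOC4331966), which encodes a protein of the small subunit, had 18.6, 4.02 and 4.09 in P3, against 60.1, 59.7 and 56.6 in An1. At each of these genes P3 replicate 1 held an intermediate level, above P3 replicates 2 and 3 and below An1. The median level over the 24 genes on the log2 scale was 3.75, 2.18 and 2.19 in the P3 arrays, against 5.25, 5.32 and 5.21 in the An1 arrays. The count of 21 was the same without P3 replicate 1 and under each of the other scalings. The fall lay at the end of the series: the median level over the list was 4.86 in P2 and 2.75 in P3, and CYC07 was lower in P3 than in P2 by a log2 difference of -2.42 (adjusted p = 4.24e-06). Over all probe sets 4.22% were called higher in P3 than in P2 and 4.07% lower. Genes matched by name to proteasome subunits fell in 5 of 19 cases and rose in 0 (median -0.73), and the count grew to 10, 12 and 15 with quantile normalization, median centring and spike-in scaling. PAB1 (LOC4333000), of the proteasome's alpha subunits, had 3.98, 2.72 and 3.80 in P3, against 9.67, 10.27 and 9.47 in An1 (log2 difference -1.28). The 5 include RPN-II and RPN-IA (log2 differences -1.65 and -1.44), which may not be proteasome subunits, since the match was by name alone.

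Auxin and meristem genes were split by family. Of 50 auxin genes 16 fell and 5 rose, with a median of 0.04 that turned negative under the other scalings (-0.16 at the lowest). The falls included 11 of the 17 ARF genes, for auxin response factors, of which 0 rose, with a median over the 17 of -1.22. ARF24 (LOC4352211) had 2.91, 2.06 and 2.29 in P3, against 15.7, 17.2 and 16.6 in An1, and arf1 (LOC4350610) had 4.17, 5.57 and 4.71 in P3, against 26.1, 28.8 and 26.3 in An1. Neither gene had overlapping stages (log2 differences -2.36 and -2.28). Of the 25 IAA genes, for repressors of these factors, 4 rose and 5 fell. IAA18 (LOC4339365) had 13.6, 7.58 and 8.44 in P3, against 0.355, 0.441 and 0.409 in An1, and IAA3 (LOC4325890) had 14.8, 7.3 and 6.58 in P3, against 41.6, 37.8 and 38.7 in An1. Among 38 meristem genes 7 fell and 2 rose, and 6 of the 7 were of the 10 growth-regulating factor genes. GRF6 (LOC4333990) had 0.237, 0.379 and 0.397 in P3, against 13.6, 12.7 and 12.4 in An1 (log2 difference -3.38, SE 0.16, adjusted p = 1.92e-13). FON1 (LOC4342080), the receptor kinase that limits the floral meristem, had 0.451, 1.47 and 2.07 in P3, against 7.495, 7.38 and 8.07 in An1. Of the 6 WOX and 6 YABBY genes limma called 0. The p was under 0.05 for 3 and 4 of them, both adjusted and unadjusted, and the size threshold was not reached (log2 differences of at most 0.25 upwards and -0.76 downwards). In the homeobox list, with 4 of 45 higher and 9 lower (2 and 11 with spike-in scaling), 5 of the 8 GL2-type genes, a class expressed in epidermis, fell, and the largest fall was that of GL2-3 (LOC4349488, 0.166, 0.318 and 0.217 in P3, against 4.69, 4.35 and 4.71 in An1).

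Stamen identity genes were measured at both ends of the series. Of the 5 class B and C MADS-box genes measured 3 rose and 0 fell, or 2 and 1 with spike-in scaling. MADS2 (LOC4325001) had 70.4, 123 and 141 in P3, against 20.6, 22.4 and 21.6 in An1, and MADS16 (LOC4342047) had 79.4, 167 and 179 in P3, against 39.04, 37.9 and 37.8 in An1. Both class B genes were bright in both stages and did not overlap (log2 differences 2.26 and 1.78). The MADS16 call was lost after quantile normalization (0.73) and spike-in scaling (0.96). MADS3 (LOC9271572), a class C gene with a known late role in anther redox balance, had 5.98, 7.69 and 12.1 in P3, against 1.14, 1.16 and 1.14 in An1. MADS4 and MADS58, the other B and C genes, were not called (log2 differences 0.21 and -0.36), but the sign for MADS4 turned under the other scalings and MADS58 was called lower with spike-in scaling (-1.06). Of 12 genes of other floral organs 1 rose and 1 fell, and with median centring and spike-in scaling 0 rose and 3 fell. Their summed intensity was 88, 142 and 167 on the P3 arrays, against 136, 146 and 134 on the An1 arrays, which overlap. DL (LOC4332058), of carpels, had 0.344, 0.735 and 0.599 in P3, against 0.436, 0.432 and 0.464 in An1, while its sign turned with median centring and spike-in scaling, and MADS13 (LOC4351753), of ovules, had 0.669, 0.328 and 0.341 in P3, against 0.279, 0.236 and 0.238 in An1. MADS1 (LOC4332059), of the lemma and palea, had 3.98, 2.04 and 5.097 in P3, against 0.874, 1.13 and 0.856 in An1 and was called higher (log2 difference 1.21), but not under median centring (0.85), spike-in scaling (0.67) or without P3 replicate 3 (just under 1).

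Several tapetal genes were low at both ends of the series and high between them. Of the 5 tapetal lipid and pollen-wall genes tested 0 were called in limma's test and 0 had an unadjusted p under 0.05. The spread in this test was taken over all stages. The SE of C4 was 0.64, though it had 0.544, 0.312 and 0.301 in P3, against 0.218, 0.196 and 0.206 in An1. At 3 of the 5 genes every P3 array was above every An1 array (34.7% over all genes). RTS (LOC4326940), a tapetum gene needed for fertility, had 0.716, 0.891 and 0.692 in P3, against 0.152, 0.125 and 0.151 in An1. It was called higher with a pseudocount of 0.1 (log2 difference 1.83, limma adjusted p = 0.0295). C6 (LOC4350790), a lipid transfer protein gene, had 0.262, 0.594 and 0.404 in P3, against 0.178, 0.103 and 0.1604 in An1. Stage means of RTS were 85.8 in P1 and 144 in P2 and those of C6 106 in M3, 146 in P1 and 29.9 in P2. Both were lower in P3 than in P2 (log2 differences -6.34 and -4.33, adjusted p = 2.42e-07 and 2.22e-08). BURP13 (LOC4345929), also named RAFTIN1, went the same way, with 97.1 in P1, 24.7 in P2 and 0.864 in P3. Among the 13 anther wall and tapetum regulators 4 rose and 3 fell with a median of 0.10, and with median centring and spike-in scaling 2 rose and 4 fell with medians of -0.28 and -0.45. FTIP7 (LOC4338582) had the largest fall after MSP1, with 0.686, 0.735 and 0.9295 in P3, against 18.1, 13.2 and 14.95 in An1. AP25 (LOC4331874), an aspartic protease gene of tapetal cell death, had 0.185, 0.352 and 0.419 in P3, against 10.3, 9.63 and 10.3 in An1 (log2 difference -3.08, SE 0.59). AP25 was higher between these stages, with means of 123 in M3 and 82.6 in P1, and had 0.174 in P2. Of the tapetal marker genes, C4, C6 and CYP703A3 were at most 0.594 on each of the 6 arrays. The markers RTS and BURP13 were above that in P3, at up to 0.891 for RTS and a mean of 0.864 for BURP13. Such levels cannot be compared between probe sets.

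The 6 measured genes of the late pollen list all rose, by log2 differences of 4.40 to 7.89, in a list that was made with results of these arrays known. The summed intensity of the late pollen list was 305, 845 and 1127 on the P3 arrays, against 1.831, 1.501 and 1.554 on the An1 arrays. Of 13 photosynthesis genes, markers of green tissue, 6 fell and 1 rose, and 0 rose under each of the other scalings. CAB2R (LOC4324599), for a chlorophyll-binding protein, had 0.241, 1.29 and 0.866 in P3, against 24.2, 25.5 and 13.6 in An1. Its stage means were higher still between these stages, with 58.2 in M3, 59.2 in P1 and 27.7 in P2, against 21.1 in An1. RBCS (LOC4351966), for the small subunit of Rubisco, had 1.26, 1.45 and 0.908 in P3, against 1.03, 0.751 and 0.784 in An1. It was not called, and its sign turned with median centring and spike-in scaling. Among 8 seed storage genes the glutelin gene GLUA-2 (LOC4348563) was called higher with 2.08, 20.01 and 23.04 in P3, against 0.618, 0.598 and 0.566 in An1, and the globulin gene GLB (LOC4337720) lower with 0.991, 0.484 and 0.416 in P3, against 2.56, 1.88 and 2.52 in An1, a call that was lost without P3 replicate 2 or 3 or An1 replicate 1 or 3 (-0.99 to -0.94). The glutelin genes GLUB-5 and GLUB-4 were at most 0.358 on all 6 arrays. How far other tissues contribute to these values was not tested.

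Among the remaining lists, nitrogen and amino acid genes rose in 8 of 17 cases and fell in 3 (median 0.92), or 5 and 4 with spike-in scaling. GDH2 (LOC4336554), for a glutamate dehydrogenase, had 18.8, 79.03 and 102 in P3, against 2.54, 2.42 and 2.27 in An1 (log2 difference 4.001). P5CS1, for an enzyme of proline synthesis, fell furthest (log2 difference -1.76). Of 62 redox genes 7 rose and 8 fell, shares near those over all genes, or 4 and 13 with spike-in scaling. The falls included 4 of the 7 APX genes, for ascorbate peroxidases. Trx20 (LOC4339117), a thioredoxin gene, had 10.7, 68.04 and 103 in P3, against 0.126, 0.152 and 0.0975 in An1 (log2 difference 5.28). Of 30 cytokinin genes 4 rose, a share near that over all genes, and 2 fell, a smaller share, or 3 and 4 with spike-in scaling. The largest changes were those of LOGL1 (LOC4327684, log2 difference 3.18), of the family that releases active cytokinin, and AHP1 (LOC4346300, -1.96), a phosphotransfer protein gene of the signalling chain. Of 21 bZIP genes 4 rose and 6 fell, or 2 and 7 with spike-in scaling. Of 50 C3H zinc finger genes 8 rose and 7 fell, shares near those over all genes, and the counts were 3 and 17 with median centring and 2 and 18 with spike-in scaling. Of 9 MYB genes 2 rose and 1 fell, or 1 and 1 under each of the other scalings. Of 8 NAC genes 3 rose and 0 fell, with NAC010 (LOC4343630) at 5.65, 7.01 and 5.99 in P3, against 0.125, 0.0739 and 0.119 in An1. Of 6 WRKY genes limma called 0, since the 3 with an adjusted p under 0.05 (also 3 by the unadjusted p) differed by less than 1 log2 unit, and 1 and 2 were called lower with median centring and spike-in scaling.

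Several stress-related genes were high on P3 replicate 1 alone or most of all there. The 17 small heat shock protein genes tested, for chaperones that accumulate on heating, had a median log2 level of 4.12 on P3 replicate 1, against 0.67 and 0.65 on P3 replicates 2 and 3 and 0.58 to 0.84 on the An1 arrays. In all, 4 of the 17 rose and 1 fell in the comparison, with a median difference of 1.02, and without P3 replicate 1 the median was 0.02 with 2 higher and 1 lower. Hsp18.1 (LOC4332361) had 46.6, 9.77 and 7.196 in P3, against 3.83, 2.86 and 3.25 in An1, and its call (adjusted p = 0.0452) was lost without that array (limma adjusted p = 0.231), without any 1 An1 array (0.0683 to 0.0973) and under each of the other scalings (0.0945 to 0.24). Hsp18.8 (LOC4343386) was instead high on all 3 P3 arrays, with 17.1, 13.7 and 13.1 in P3, against 0.997, 0.794 and 0.736 in An1 (log2 difference 3.08, SE 0.13, adjusted p = 2.26e-14). Hsp26.2 (LOC4340508) ran the other way, with 1.76, 0.313 and 0.366 in P3, against 34.2, 32.1 and 32.8 in An1. The metallothionein gene MT-1 (LOC4351213) had 62.01, 1.48 and 1.23 in P3, against 0.127, 0.141 and 0.141 in An1, and the dehydrin gene RAB16D (LOC4350451) had 12.4, 0.725 and 1.45 in P3, against 0.285, 0.208 and 0.196 in An1. The stages did not overlap at either gene, but P3 replicate 1 carried most of the difference, and without it RAB16D fell short of the threshold (log2 difference 0.74). Both calls were lost in a fit of the 6 arrays alone (limma adjusted p = 0.0929 for MT-1 and 0.0765 for RAB16D). CAT-A (LOC4328073), for a catalase, was highest there too but high on every P3 array, with 103, 32.4 and 38.02 in P3, against 0.219, 0.144 and 0.1797 in An1 (log2 difference 5.44). MT2C (LOC4337596), another metallothionein gene, fell to 0.622, 1.69 and 1.15 in P3, against 19.2, 22.02 and 18.7 in An1.

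Over all calls P3 replicate 1 was the P3 array nearest to the An1 mean. This was so for 74.7% of the probe sets that rose and 64.3% of those that fell. The median difference from the An1 mean over the risen probe sets was 1.26, 1.96 and 2.08 log2 units on P3 replicates 1, 2 and 3, and over the fallen ones -1.31, -1.62 and -1.65. Without this array 3946 probe sets were higher and 3779 lower, and 3322 and 3294 of the original calls were among them.

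**Figure D4:**
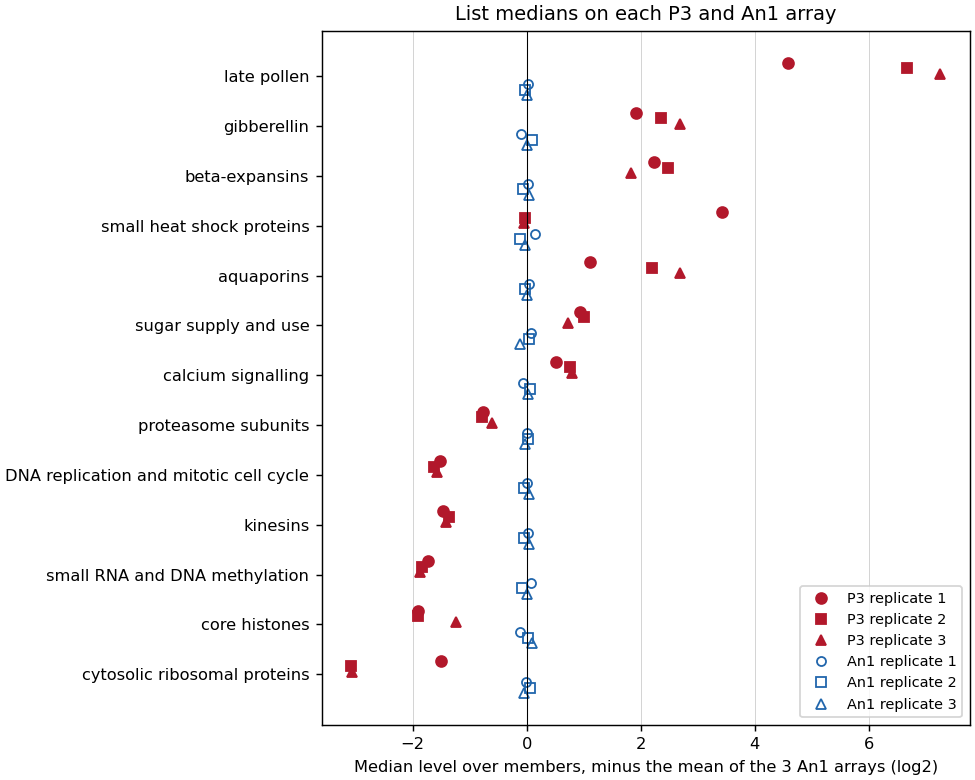
Median level over the members of 13 gene lists on each P3 array (filled red) and each An1 array (open blue), as the difference from the mean of the An1 arrays on the log2 scale. P3 replicate 1 (circle) lies between An1 and the other P3 arrays for late pollen, aquaporin and ribosomal protein genes and far from every other array for small heat shock protein genes.

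At most called probe sets the lasting change came at P2 or P3. Of the 3554 probe sets that rose, 56.7% crossed the midpoint between their An1 and P3 means for good only at P3 and 29.7% at P2. The falls were spread more widely: 36.5% crossed it at P3, 27.5% at P2, 9.79% at P1 and 14.6% at M2. The last crossing was counted, so an earlier change that reversed counts as late. Of the rises 80.5% had their highest stage mean in P3 and 13.3% in P2, and of the falls 77.9% had their lowest in P3. Choosing probe sets by P3 against An1 favours such extremes, and the share over all probe sets was not computed. Between An1 and the following stage Mei1, limma called 10 probe sets higher (0.0209%) and 0 lower, and of the single probe set that was lower by at least 1 log2 unit 0 had an unadjusted p under 0.05. The late pollen list had a median log2 level of 0.32 in P1, 4.11 in P2 and 6.30 in P3. Cell cycle genes had medians of 2.29 in An1, 2.13 in Mei1, 1.70 in M1, 1.28 in M2, 0.98 in P1 and 0.77 in P3. EXPB9 had stage means of 0.243 in P1, 124 in P2 and 293 in P3, and SWEET5 of 4.7, 19.1 and 199.8 in the same stages. MEL1 had means of 45.8 in An1, 40.2 in Mei1, 15.99 in M1 and 1.37 in M2, with 3.302 in P2, while AGO1D still had a mean of 25.3 in P1, 5.63 in P2 and 1.34 in P3.

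**Figure D5:**
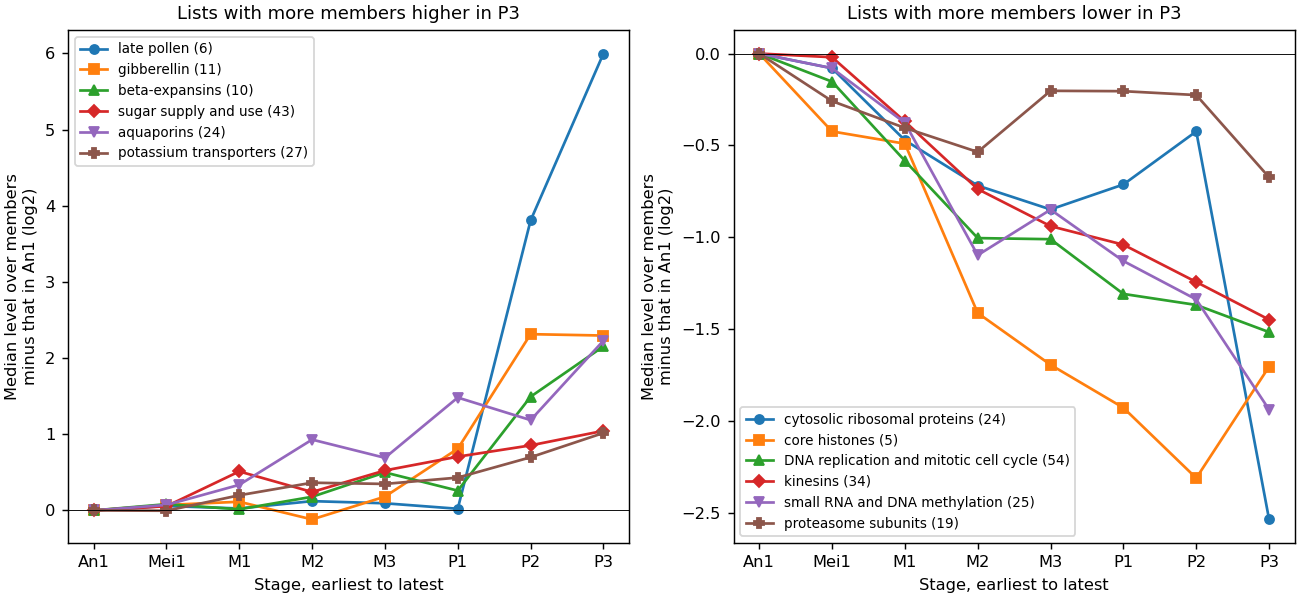
Median level over the members of each list at the 8 stages, as the difference from An1 on the log2 scale, for lists with more members higher (left) or lower (right) in P3; members are numbered in brackets. Late pollen genes, listed with results of these arrays known, rise at P2 and P3. Cell cycle and kinesin genes decline from meiosis on, histone genes are lowest at P2, and ribosomal protein genes drop between P2 and P3.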

How the data were processed

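The deposited values are array intensity on a linear scale, and they show that the authors divided each of the 26 arrays by its own 75th percentile. The submitters' processing notes name GCOS 1.3 without its role, and the background correction and the making of 1 value per probe set are not given in the sources used here. No counts lie behind array intensities, and precision is limited by how many arrays there are. Of 57381 probe sets 187 controls were left out. The intensities deposited by the authors were analysed as log2(intensity + 1). A probe set entered the test if any of its 8 stage means exceeded the log2 level below which 40% of all values lie, as 47799 of 57194 did. Stage means were fitted over all 26 arrays, which share 1 estimate of the spread, with limma 3.58.1 in R 4.3.3 and an intensity trend, and P3 minus An1 was tested two-sided with Benjamini-Hochberg adjustment over all probe sets tested. P3 minus P2 and Mei1 minus An1 came from the same fit.

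Gene names came from the array's annotation and a RefSeq table (assembly ASM3414082v1, names alone): 22436 probe sets have 1 gene, 95 several and 34663 none, and 2456 of 17905 genes have a symbol. The probe set with the highest mean stood for its gene. Genes were named by a rule: among called probe sets of a gene with a symbol whose stages do not overlap, the 12 that rose most and the 12 that fell most, up to 4 called members of each list in each direction (or the member with the highest mean where none was called), and markers of tissues. GLUB-5, GLUB-4 and the subfamilies counted within lists fall outside the rule and were chosen after their values were seen. The members and lists were chosen with earlier results of these data known. Lists are described by counts and medians without a test of the list. Genes whose symbol matched a list but were recognized as belonging to another family were removed from it by name, and others may remain. Tested on simulated arrays, the fit recovered 77 of 100 changes of 1.5 log2 units and 98 of 100 changes of 3 among 39325 tested, with 1 false call. Changed probe sets were drawn from bright ones, since falls of dim ones end at the floor, and an earlier simulation that also drew dimmer ones recovered fewer. The simulated arrays had flat stage means apart from these changes and the same normal spread at every stage. The real spread was wider in P3 than in An1 (median SD 0.134 against 0.0482). The probe sets that rose had a median log2 level of 0.593 in An1, dimmer than those changed in the simulation. Neither the recovery nor the false calls can therefore be carried over to this comparison. Replicate numbers were not used as pairs in the main fit. Deviations of same-numbered P3 and An1 arrays correlated at -0.034, -0.089 and 0.062, and those of differently numbered ones at -0.037 to 0.086. With 3 arrays a stage this check cannot exclude a pairing. Python 3.11.15 was used for tables (numpy 2.4.6, pandas 2.3.3) and for plots (matplotlib 3.10.9). Promoter sequences were not analysed here.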

Additional observations from a re-analysis of the deposited data

How the results depend on the processing

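The main comparison gave 3554 probe sets higher and 3402 lower in P3. A pseudocount of 4 gave 1799 and 1199, a pseudocount of 0.1 gave 7246 and 6259, spike-in scaling gave 2027 and 5742, and a threshold of 2 log2 units gave 1413 and 849; the causes were not tested, beyond the last, which is stricter by construction. Quantile normalization, median centring, no low-value filter, a stricter filter, no trend, array weights and the 6 arrays alone kept both counts within 1.5 times. Of 235 named genes 61 lost their call with a pseudocount of 4, 25 with spike-in scaling and 8 with the 6 arrays alone. Leaving out 1 array at a time gave 3312 to 3946 higher and 3190 to 3779 lower. With the replicate number as a block the counts were 3554 and 3402, and 3552 and 3402 of the original calls were among them. Same-numbered arrays correlated at -0.034, -0.089 and 0.062 in their deviations, too few values to exclude a pairing. No called probe set was called the other way under any of these settings. Differences that changed sign were all of genes that were not called: fie (0.02) was -0.19, -0.447 and -0.666 under quantile, median and spike-in scaling, -0.009 with array weights and -0.061 to 0.082 with 1 array left out (negative without P3 replicate 3 or An1 replicate 2); MADS4 (0.208) was -0.122, -0.289 and -0.527 under the 3 scalings; DL (0.103) was -0.085 and RBCS (0.244) -0.019 under median centring; under spike-in scaling DL was -0.161, RBCS -0.114 and BURP13 (0.305) -0.039. A search of promoters for motifs was planned and not run. Signal near the low end of the scale limits the size of a fall or rise that can be seen.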
